A study of Mus musculus with 2 samples.

Results

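Somatostatin is a small inhibitory neuropeptide that is cut from a precursor encoded by Sst and released from dense core vesicles. Its receptors, encoded by the Sstr genes, couple to inhibitory G proteins, which lower cyclic AMP, open inwardly rectifying potassium channels and close voltage-gated calcium channels. Cortistatin, encoded by Cort, is a related ligand of the same receptors. In forebrain and dorsal spinal cord Sst is a familiar marker of subsets of local neurons. Otof encodes otoferlin, a membrane-anchored protein with several C2 domains that acts as a calcium sensor of vesicle release at the ribbon synapses of cochlear inner hair cells, and it belongs to the ferlin family. The 6 genes described here, Sst, Otof, Sstr1, Sstr2, Sstr3 and Sstr4, were chosen by name out of 23912 genes in the count tables, with earlier results of these data in view. The nuclei with at least 5 Sst UMIs (unique molecular identifiers, the counted transcripts), called Sst-high below, were chosen by the Sst count itself, so their Sst level is a description. They numbered 16 of 422 neuronal nuclei in one library and 37 of 269 in the other.

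The nuclei came from the hindbrain of mice of the TRAP2 strain, aged 8 to 12 weeks, dissected from about -7.3 to -5.2 mm relative to bregma. TRAP2 mice carry an inducible Cre recombinase under control of the activity-induced gene Fos, so that neurons active in a chosen time window can be marked. All mice had AAV-retro-H2B-GFP in the lumbar cord, a virus taken up by axons that labels the nuclei of neurons projecting there. The labels give 2 treatments, each with 1 library of FACS-sorted nuclei from pooled hindbrains. One is labelled Hot water bath (the bath library below) and the other SNI with brush (the brush library), and no untreated library was analysed here. The number of mice in a pool, the meaning of the abbreviation SNI and the gate that separated active from other descending neurons are not given in the sources used here. Because there is 1 library per treatment, no test was made and no p-value is given. Intervals are at the 95% level, exact, and account for counting error alone. A ratio between libraries compares 2 pools and has no replicate check.

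The bath library held 16344606 UMIs in 425 nuclei and the brush library 11298755 UMIs in 288 nuclei, with medians of 36962 and 32852 UMIs per nucleus and no barcode in common. UMIs of a gene per 1e+06 UMIs of a set of nuclei are its CPM. All 8 neuron markers were present in both. Mitochondrial UMIs made up 0.148% and 0.514%. The brush library also held 17 non-neuronal nuclei led by liver genes, which were left out of all values unless named. Of the markers of other cell types, those of choroid plexus reached a summed 235 CPM in the other neuronal nuclei of that library, against 9.71 CPM in the bath library, and those of oligodendrocytes 185 against 77.4 CPM. Their part in the differences between libraries was not tested. Within the brush library these sums were as high in Sst-high nuclei, at 229 CPM for the 3 choroid plexus genes and 187 CPM for the 6 oligodendrocyte genes. Sst-high nuclei of the bath library had higher sums than its other neuronal nuclei, at 19.97 CPM for choroid plexus and 103 CPM for oligodendrocytes, and the part of these in the ratios of that library was not tested.

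The members lie on 6 chromosomes of the mm10 build. Sst spans chr16:23889573-23890958 on the minus strand, with a transcript of 2 exons. Otof spans chr5:30367062-30461932 on the minus strand, and its longest coding transcript has 47 exons and 5991 coding bases. Sstr1 lies at chr12:58211772-58214444 (plus strand), Sstr2 at chr11:113619342-113626028 (plus), Sstr3 at chr15:78537008-78544685 (minus) and Sstr4 at chr2:148395344-148396767 (plus). Aligned pairwise, the coding sequences of the receptors shared between 63.9% (Sstr1 and Sstr2) and 70.3% (Sstr1 and Sstr4) of their paired bases.

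The active peptides sit at the end of the precursors. The last 42 coding bases of Sst, which encode somatostatin-14, are shown with the last 42 of Cort to show how alike the ligands of these receptors are. Bases shared in the best alignment without gaps are in capitals, 31 of 39 paired bases (79.5%).
Sst: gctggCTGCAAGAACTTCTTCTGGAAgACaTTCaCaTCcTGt
Cort: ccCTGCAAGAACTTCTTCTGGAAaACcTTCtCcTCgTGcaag

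Sst is also a textbook target of CREB, the activity-regulated factor that binds the palindrome TGACGTCA. In the RefSeq upstream sequences (GRCm38.p6), found for 5 of 7 genes looked up, the motif occurred once before Sst and once before Sstr2. It was not found in the windows of Sstr3, Sstr4 and Cort. In 32536 windows of 250 bases before a start site, 1.56% held it, and as a palindrome it reads the same on both strands. It begins 48 bases before the RefSeq start of Sst and 58 before that of Sstr2. The 30 bases around it are shown with the motif in capitals. The Sst window, at chr16:23890874-23890903 on the minus strand, falls inside the first exon of the longer GENCODE transcript. The Sstr2 window is at chr11:113619258-113619287 on the plus strand.
Sst: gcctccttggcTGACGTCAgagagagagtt
Sstr2: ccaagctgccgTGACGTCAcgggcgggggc

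Sst was present in both libraries and higher in the brush one. The bath library held 359 Sst UMIs in 77 of 422 neuronal nuclei, 22.2 CPM (19.98 to 24.6). The brush library held 1203 in 102 of 269 nuclei, 112 CPM (106 to 119). The log2 ratio, brush over bath, was 2.34 (2.17 to 2.51). As background, 25.4% of 12974 genes with at least 100 UMIs were higher in that library by 1.5-fold or more, and 5.99% were lower by as much. After each nucleus was thinned to 10000 UMIs, 9.48% (6.86 to 12.7%) and 24.0% (18.98 to 29.6%) of neuronal nuclei still showed Sst, against 18.2% and 37.9% before thinning. The ratio had the same sign in nuclei with Y-linked UMIs and no Xist UMI (10.0 against 130 CPM) and in nuclei with Xist and no Y-linked UMI (28.7 against 104 CPM).

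Most Sst transcripts lay in a few nuclei. The bath library had 345 nuclei with no Sst UMI, and the 16 Sst-high nuclei held 245 of the 359 UMIs (68.2%). Their counts were 45, 41, 35, 31, 17, 15, 9, 7, 7, 7, 6, 5, 5, 5, 5 and 5. The brush library had 167 nuclei with none, and the 37 Sst-high nuclei held 1100 of 1203 UMIs (91.4%), with a lowest count of 5, a median of 20 and a highest of 120. Thus 4 nuclei in the first library and 19 in the second reached 20 UMIs. Around the threshold, 11 nuclei had 4 UMIs and 5 had exactly 5 in the bath library, against 3 and 4 in the brush library. Outside the Sst-high nuclei the level was 7.33 CPM (6.04 to 8.80) and 11.2 CPM (9.11 to 13.5). In the 17 liver-gene nuclei, which should lack Sst, 5 held 1 UMI each, or 10.1 CPM (3.29 to 23.6), at a median depth of 22273 UMIs. The Sst level outside Sst-high nuclei of the same library lay inside that interval, so it cannot be told from the level of these nuclei at this depth. Sst-high nuclei made up 3.79% (2.18 to 6.08%) and 13.8% (9.87 to 18.5%) of neuronal nuclei. They were about as deep as the others, with median UMIs of 38744 against 36782 and of 33545 against 33032.

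Nuclei were assigned to a transmitter class by their own UMIs: at least 75% of 3 or more from the vesicular glutamate transporters Slc17a6, Slc17a7 and Slc17a8 (glutamatergic), or from Slc32a1, Slc6a5, Gad1 and Gad2, which serve GABA and glycine (inhibitory). The remainder were mixed or had too few such UMIs. In the bath library Sst was mainly in inhibitory nuclei, at 85.9 CPM (76.0 to 96.7) against 5.93 CPM (4.53 to 7.64) in glutamatergic nuclei. The mixed and undetermined nuclei of that library had 10.1 and 7.26 CPM. In the brush library inhibitory nuclei had 147 CPM (135 to 160), glutamatergic nuclei 97.6 CPM (89.6 to 106), mixed nuclei 101 CPM (81.7 to 124) and undetermined nuclei 18.0 CPM (7.24 to 37.1). The intervals of the glutamatergic and mixed nuclei overlapped. Between libraries the log2 ratio was 4.03 (3.65 to 4.45) in glutamatergic nuclei and 0.77 (0.56 to 0.99) in inhibitory nuclei. By 1.5-fold or more, 21.4% of 11283 genes were higher and 6.04% lower in glutamatergic nuclei, and 28.7% of 8769 higher and 7.63% lower in inhibitory nuclei.

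**Figure D1:**
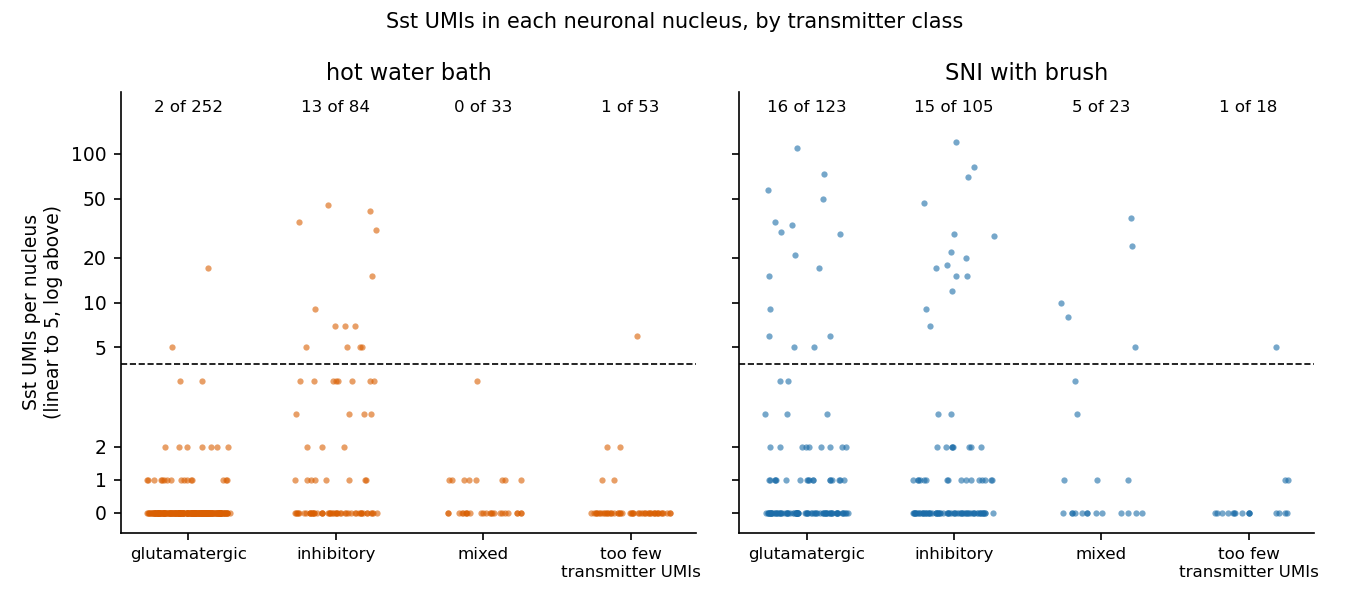
Sst UMIs in each neuronal nucleus (points; vertical axis linear to 5 and log above) by transmitter class, hot water bath at left and SNI with brush at right; the dashed line separates Sst-high nuclei, counted above each column. Sst-high nuclei are 13 of 84 and 15 of 105 inhibitory nuclei, but 2 of 252 and 16 of 123 glutamatergic nuclei.

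Among inhibitory nuclei the share of Sst-high nuclei was 15.5% (13 of 84, 8.51 to 25.01%) in the bath library and 14.3% (15 of 105) in the brush library. Among glutamatergic nuclei it was 0.794% (2 of 252, 0.0963 to 2.84%) and 13.0% (16 of 123, 7.62 to 20.3%). Seen from the Sst-high side, 13 of 16 (81.3%, 54.4 to 96.0%) were inhibitory in the bath library and 2 glutamatergic. Of the 37 in the brush library 15 were inhibitory (40.5%), 16 glutamatergic (43.2%), 5 mixed and 1 undetermined. Among the other nuclei of the libraries 17.5% and 38.8% were inhibitory. The intervals of the glutamatergic shares do not overlap, and with 1 library each the difference was not tested.

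**Figure D2:**
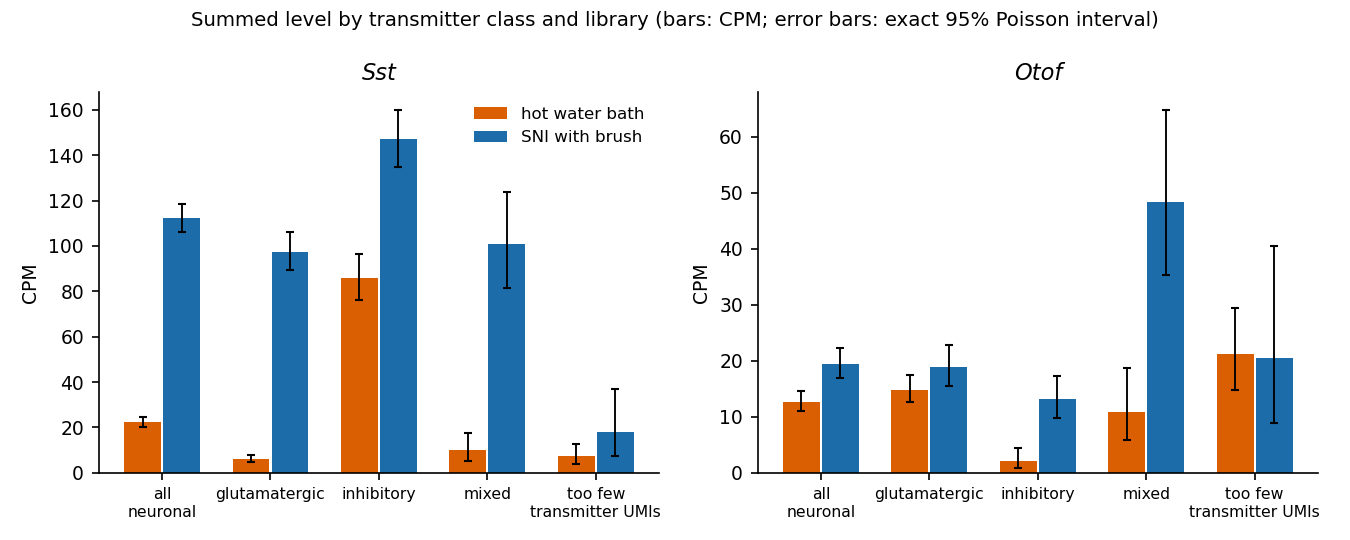
Summed Sst (left) and Otof (right) level in CPM for all neuronal nuclei and by transmitter class, for the hot water bath (orange) and SNI with brush (blue) libraries; error bars are exact 95% Poisson intervals. Glutamatergic Sst goes from 5.93 to 97.6 CPM between the libraries, inhibitory Sst from 85.9 to 147 CPM, and Otof in inhibitory nuclei from 2.19 to 13.1 CPM.

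The clusters, made without the members, placed many Sst-high nuclei together. One cluster, led by the zinc transporter gene Slc30a3, by Rskr, Amn and the inhibitory lineage factor Pax2, held 25 nuclei of the bath library and 118 of the brush library. It held nuclei of every transmitter class and was given no name. It contained 5 of the 16 and 25 of the 37 Sst-high nuclei, or 20% (6.83 to 40.7%) and 21.2% (14.2 to 29.7%) of its nuclei. Its Sst level was 225 and 239 CPM. Outside it 11 of 397 (2.77%, 1.39 to 4.90%) and 12 of 151 nuclei (7.95%, 4.17 to 13.5%) were Sst-high, and Sst was at 13.6 and 38.1 CPM. In this cluster 10 of 42 glutamatergic nuclei of the brush library were Sst-high, against 6 of 81 outside it. Since most of its nuclei come from a single library, a feature of the library and a type of neuron cannot be told apart. In the bath library another cluster, led by Tph2 and Slc6a4, held more of the Sst-high nuclei. They were 7 of its 31 nuclei there (22.6%, 9.59 to 41.1%), and none of its 4 nuclei in the brush library was Sst-high.

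Part of the inhibitory Sst-high nuclei of the bath library carried serotonergic genes. In 7 of 16, Tph2, the neuronal enzyme of serotonin synthesis, had 5 or more UMIs (5, 21, 31, 37, 75, 82 and 143), with Sst counts from 5 to 15. All 7 also held UMIs of Slc18a2, the vesicular monoamine transporter, of Ddc, the decarboxylase, of Lmx1b, a factor of serotonergic fate, and of Gad2. Other listed serotonergic genes were less even. Of all 16 Sst-high nuclei 3 held Slc6a4, 6 held Maob and 2 held Fev, the last with 3 UMIs. Over other nuclei the log2 ratio of Slc6a4 was 0.47 (-0.43 to 1.17) without its top nucleus. Conversely 7 of the 30 nuclei with 5 or more Tph2 UMIs were Sst-high (23.3%, 9.93 to 42.3%), and 22 of the 30 had at least 1 Sst UMI, at 75.5 CPM (61.1 to 92.3). The 4 such nuclei in the brush library held 5 Sst UMIs, and none of the 37 Sst-high nuclei there reached 5 Tph2 UMIs. Among inhibitory nuclei under 5 Tph2 UMIs, 6 of 56 (10.7%, 4.03 to 21.9%) were Sst-high in the bath library. In the brush library 15 of 103 (14.6%, 8.39 to 22.9%) were.

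The other 6 inhibitory Sst-high nuclei of the bath library all held Slc6a5 UMIs, the plasma membrane glycine transporter that marks glycinergic neurons (48 UMIs, from 4 to 22 per nucleus), as well as Slc32a1 and Gad2. Pax2 was seen in 5 of them and Pax8 in 4, both factors of inhibitory interneurons of hindbrain and cord. They included the 4 nuclei with the most Sst, at 45, 41, 35 and 31 UMIs, none with a Tph2 UMI. In the brush library 13 of 15 inhibitory Sst-high nuclei held Slc6a5 (98 UMIs), 9 held Pax2 and 5 Pax8. Against the other inhibitory nuclei of that library Slc6a5 was level, with a log2 ratio of 0.03 (-0.29 to 0.33), and Gad2 somewhat lower at -0.44 (-0.83 to -0.09). In the bath library Slc6a5 was higher in inhibitory Sst-high than in other inhibitory nuclei, by 1.16 (0.63 to 1.65), but 22 of the 48 UMIs came from 1 nucleus, and without it the ratio was 0.42 (-0.28 to 1.02). Without its top nucleus Pax2 was at 0.07 (-1.30 to 1.10) in the bath and 0.16 (-0.49 to 0.70) in the brush library. Pax8 was then at 0.82 (-1.07 to 2.22) and -1.13 (-2.72 to -0.08). In the brush library 16 of 22 Pax8 UMIs of the inhibitory Sst-high nuclei came from 1 nucleus. Leaving it out lowers the ratio and does not check a negative one.

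**Figure D3:**
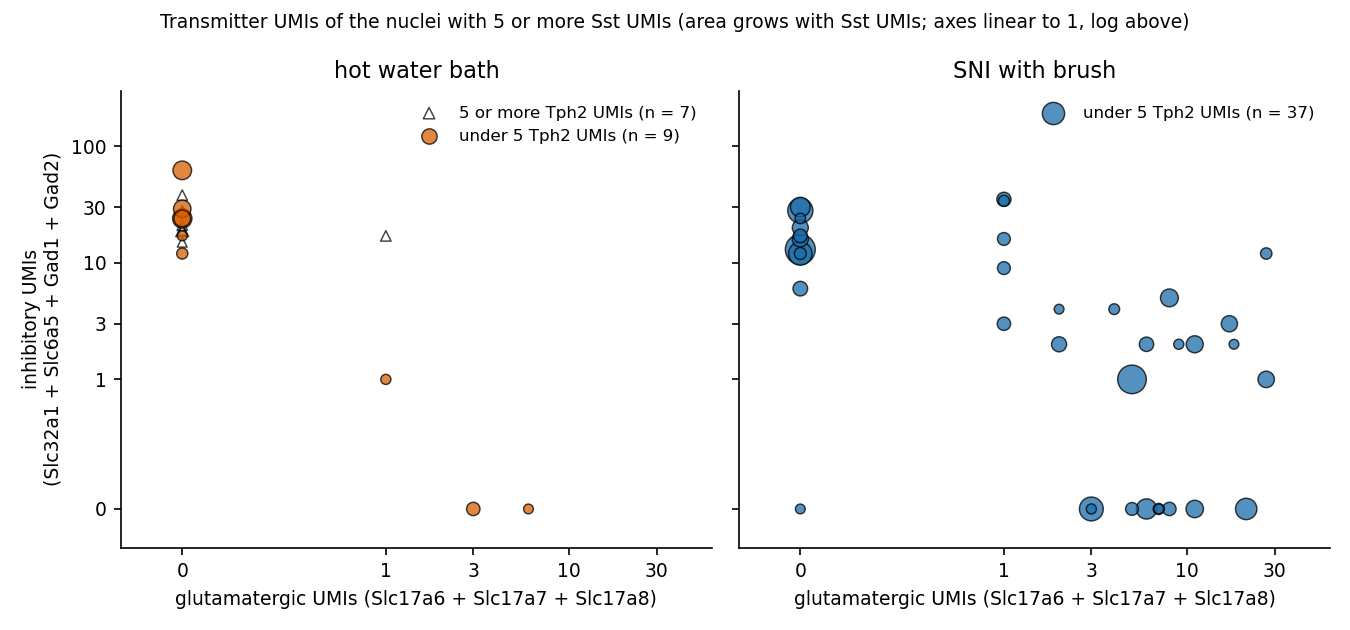
Each symbol is a Sst-high nucleus, placed by its summed glutamatergic (horizontal) and inhibitory (vertical) transmitter UMIs, both axes linear to 1 and log above; area grows with Sst UMIs and open triangles have 5 or more Tph2 UMIs. The 7 triangles all belong to the bath library, where only 2 nuclei are glutamatergic by the 75% rule, while 16 of 37 SNI with brush nuclei are.

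The 16 glutamatergic Sst-high nuclei of the brush library all held Slc17a6 UMIs (149 in all, from 3 to 21 each), and 4 held Slc17a7. Their inhibitory UMIs were few: 2 nuclei had Slc32a1 and 2 had Slc6a5, with 1 UMI each, while 4 had Gad1 and 1 had Gad2. Lmx1b, also a factor of dorsal excitatory neurons, was seen in 6. Against the other glutamatergic nuclei of the library Slc17a6 was level (log2 ratio -0.12, -0.38 to 0.13). The peptide precursors Tac1 (substance P) and Penk (enkephalin) were higher, by 1.93 (1.501 to 2.34) and 1.32 (0.81 to 1.79), and Adcyap1 (PACAP) by 1.61 (1.02 to 2.16). Without the nucleus with the most UMIs of each gene these ratios were 1.73, 0.73 (0.10 to 1.29) and 1.21 (0.54 to 1.81). Lower were Crh, at -2.29 (-4.35 to -1.06), Nts, at -1.81 (-3.59 to -0.68), and the factor Onecut2, at -0.74 (-1.38 to -0.20). The same omission gave -2.92, -3.61 and -1.15, but leaving out a Sst-high nucleus tends to lower a ratio and does not check a negative one. The LIM homeodomain factor Lhx4 had 0 UMIs in these 16 nuclei against 61 in the others.

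The factor Foxp2 and the prohormone convertase Pcsk1 show how single nuclei carry some of these sums. Foxp2 had 192 UMIs in the glutamatergic Sst-high nuclei, all in 2 of 16. Over all Sst-high nuclei of the brush library its ratio of 1.98 (1.75 to 2.21) dropped to 1.16 without the nucleus with 115 UMIs, and 7 of 37 nuclei had any. For Pcsk1, 112 of 147 UMIs came from 1 nucleus, and the ratio of 1.81 became -0.11 (-0.68 to 0.39) without it. The same holds for the peptide Tac2 in the bath library: all 53 UMIs of the Sst-high nuclei were in the glutamatergic nucleus with 17 Sst UMIs.

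Genes of peptide processing and dense core vesicles differed in direction. All 13 of the list had at least 100 UMIs in each library, and 2 were at least 2-fold higher in Sst-high nuclei in each, where 3.26% of 11034 genes (hot water bath) and 0.689% of 10602 (SNI with brush) were; lower by as much were 1 of the list (Pcsk2) and 0, where 6.24% and 1.32% of all genes were. The 2 genes were Pam and Cadps2 in the bath library and Pam and Pcsk1 in the brush library. The list's median log2 ratio was -0.11 and 0.36, against -0.01 and -0.03 over all genes. Pam, the enzyme that amidates peptides, was higher in both libraries, by 1.30 (1.15 to 1.43) and 1.03 (0.90 to 1.15), and by 1.22 and 0.52 without the nucleus with the most Pam. Cadps2, a priming factor of dense core vesicles, was higher by 1.57 (1.26 to 1.85) in the bath library and by 1.25 without its top nucleus; in the brush library it was at 0.37, and at 0.02 without its top nucleus. Scg2, a secretogranin, was at 0.37 and 0.90, and at 0.18 (-0.09 to 0.43) and 0.82 without its top nucleus. The convertase Pcsk2 was at -1.76 (-2.13 to -1.44) in the bath library, and at -0.05 (-0.17 to 0.07) in the brush library, or -0.16 (-0.29 to -0.03) without its top nucleus. Those comparisons mix transmitter classes, whose shares differ between Sst-high and other nuclei of the bath library. Among inhibitory nuclei alone Pam was at 0.18 (0.02 to 0.33) and Pcsk2 at -0.30 (-0.90 to 0.23) in the bath library. Without its top nucleus Pcsk2 was at -0.98 (-1.80 to -0.32) there. Leaving out a Sst-high nucleus tends to lower a ratio, here as in the brush library, and does not check a negative one. Among these inhibitory nuclei of the bath library 1 of 13 genes of the list was at least 2-fold higher and none lower, with 0.776% and 2.13% of 5029 genes as background. For inhibitory nuclei of the brush library the counts were 1 and 0 of 12, with a background of 1.08% and 1.8%. For its glutamatergic nuclei they were 4 and 0 of 13, with a background of 0.899% and 2.03%. The 4 were Pcsk1 (2.40), Pam (1.33), Cadps2 (1.30) and Scg2 (1.22). A single nucleus held 265 of the 451 Pam and 112 of the 130 Pcsk1 UMIs of the glutamatergic Sst-high nuclei, and without it Cadps2 (1.54) and Scg2 (1.13) were the 2 at least 2-fold higher, with Pam at 0.32 and Pcsk1 at -0.15.

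Other peptides did not move together. Of 17 other neuropeptide genes, 7 had at least 100 UMIs in the bath library, 2 higher (Tac2, and Penk at 1.22, or 0.46 without its top nucleus) and 4 lower by at least 2-fold, with a median of -2.76, where 3.26% and 6.24% of all genes were higher and lower by as much. The lower were Gcg, Adcyap1, Cck and Crh. That comparison mixes transmitter classes, since 13 of 16 Sst-high nuclei of the bath library were inhibitory against 17.5% of the others. Among its inhibitory nuclei only 2 of the 17 genes had at least 100 UMIs. Crh had 0 UMIs in Sst-high and 5 in other inhibitory nuclei there. Of the 10 with at least 100 UMIs in the brush library, 2 were higher (Tac1, 1.81, and Adcyap1, 1.15, or 0.79 without its top nucleus) and 3 lower, with a median of 0.09, against 0.689% and 1.32% of all genes. Cartpt was among the lower, at -1.78 (-2.57 to -1.16), with Nts at -1.51 and Crh at -1.40. Of 7 markers of cortical Sst interneurons found in the tables, Lhx6, the factor that specifies those cells, had 0 UMIs in the neuronal nuclei of both libraries. The 4 with at least 100 UMIs in the brush library had a median of -0.54, none at least 2-fold higher.

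Genes were also ranked over both libraries for their ratio in Sst-high over other nuclei, by the smaller of the 2 values, leaving out genes with over 25% of their Sst-high UMIs in 1 nucleus. Of 3921 genes that met the floors, the first were the T-type calcium channel gene Cacna1g, at 1.08 (0.45 to 1.62) in the bath library and 0.93 (0.58 to 1.25) in the brush library, and the factor Pou2f2, at 1.23 and 0.84. Kcnt2, a sodium-activated potassium channel, followed at 1.67 (1.504 to 1.82) and 0.84 (0.64 to 1.03), then Vgf, a precursor stored in secretory granules, at 0.87 and 0.73. The sorting receptor gene Sorcs3 (1.23 and 0.70), the R-type calcium channel gene Cacna1e (0.73 and 0.70) and the cadherin gene Cdh4 (1.55 and 0.65) came next. Cacna1e had a UMI in all 16 and all 37 Sst-high nuclei. The guidance ligand Slit1, the small GTPases Rab8b and Rab40b, Fam49a and the BMP co-receptor Rgmb completed the 12, between 0.60 and 0.65 in the brush library; the interval of Rab40b there, -0.03 to 1.19, included 0. The ranking mixes transmitter classes, since 13 of 16 Sst-high nuclei of the bath library were inhibitory against 17.5% of the others. Within a class all 12 genes were above 0 among inhibitory nuclei of the bath library (6 with an interval above 0), inhibitory nuclei of the brush library (5) and its glutamatergic nuclei (8). These ratios reuse the nuclei by which the genes were ranked, so their signs are no independent check.

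**Figure D4:**
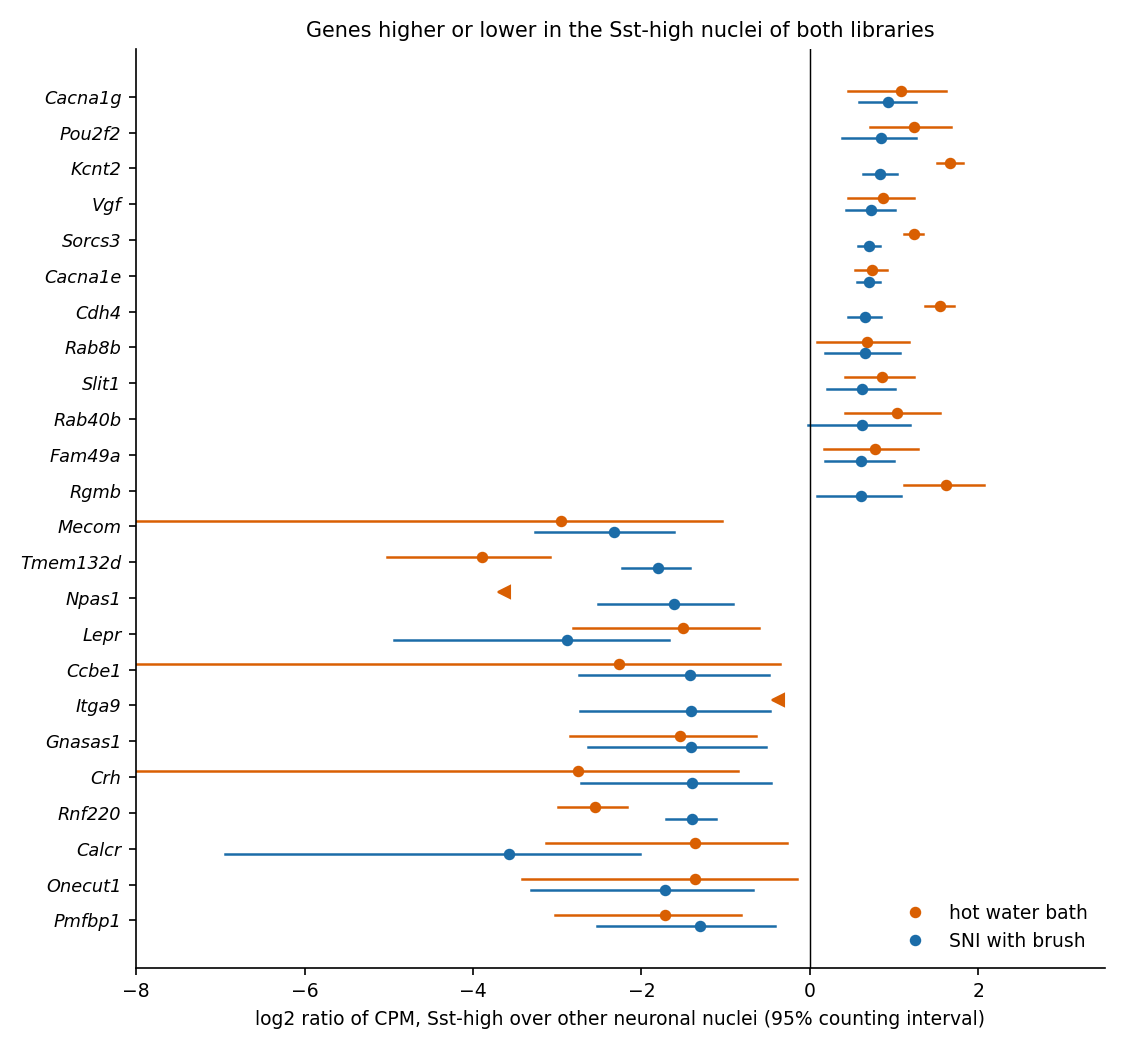
Log2 ratio of CPM in Sst-high over other neuronal nuclei for the 12 highest and 12 lowest genes by the ranking over both libraries (points; bars are 95% counting intervals, cut at -8; arrowheads mark genes with 0 UMIs in Sst-high nuclei, drawn at the bound from 3 counts). Hot water bath is orange and SNI with brush blue; Kcnt2, Sorcs3 and Cdh4 lie farther right in the bath library.

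At the other end, of 8904 genes, were Mecom, a zinc finger factor (-2.95 and -2.33), Tmem132d (-3.89, -5.03 to -3.08, and -1.80, -2.23 to -1.43) and the ubiquitin ligase gene Rnf220 (-2.55 and -1.40). Npas1, a bHLH-PAS factor, had 0 UMIs in the 16 Sst-high nuclei of the bath library, at least 12.4-fold lower than in the others, and was at -1.61 in the brush library. The leptin receptor gene Lepr was at -1.51 and -2.89 and the calcitonin receptor gene Calcr at -1.37 and -3.57. Crh, Ccbe1, Onecut1, Pmfbp1, the antisense transcript Gnasas1, whose reads may not be separable from its partner's, and the integrin gene Itga9 made up the 12. Mecom was seen in 21, Calcr in 54 and Crh in 72 of the 406 other nuclei of the bath library, so their levels there rest on small groups of nuclei. By share of nuclei with a UMI, Mecom was not lower in Sst-high nuclei: 1 of 16 in the bath library, and 3 of 37 against 12 of 232 in the brush library. Nor was Crh in the brush library, at 3 of 37 against 16 of 232. The remaining genes of the 12 were lower by this share in both libraries, some by little. Calcr was nearly even in the bath library, at 2 of 16 against 54 of 406. Rnf220 was at 28 of 37 against 187 of 232 in the brush library. Within a class 10 of these 12 genes were below 0 among inhibitory nuclei of the bath library (4 with an interval below 0), 10 among those of the brush library (3) and 12 among its glutamatergic nuclei (11). Here too the nuclei are those that ranked the genes, so the signs are no independent check.

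Otof had 205 UMIs in 91 of 422 neuronal nuclei in the bath library, 12.7 CPM (11.01 to 14.5), with at most 11 in a nucleus. The brush library held 209 in 52 of 269 nuclei, 19.5 CPM (16.9 to 22.3), with at most 23. The log2 ratio was 0.62 (0.33 to 0.90), and 0.21 (-0.13 to 0.55) in nuclei with at most 0.5% mitochondrial UMIs. Its UMIs were more concentrated in the brush library, where 7 nuclei reached 10 UMIs against 1 in the bath library.

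By class, 150 of 205 Otof UMIs (73.2%) lay in glutamatergic nuclei in the bath library and 7 (3.41%) in inhibitory nuclei, at 14.8 CPM (12.6 to 17.4) and 2.19 CPM (0.879 to 4.51). In the brush library glutamatergic nuclei had 18.9 CPM (15.5 to 22.8) and inhibitory nuclei 13.1 CPM (9.71 to 17.4), with overlapping intervals, and mixed nuclei 48.4 CPM (35.3 to 64.7). The ratio between libraries was 0.35 (-0.02 to 0.72) in glutamatergic and 2.50 (1.44 to 3.97) in inhibitory nuclei. In inhibitory nuclei of the brush library 13 and 10 of the 49 UMIs came from 2 nuclei. The 30 nuclei with 5 or more Tph2 UMIs in the bath library had 0 Otof UMIs, which allows up to 2.39 CPM. In the brush library 3 of the 4 such nuclei held 1 Otof UMI each, or 17.95 CPM (3.70 to 52.5).

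Nuclei with 5 or more Otof UMIs numbered 9 and 11. In the bath library 6 were glutamatergic, 1 mixed and 2 undetermined, and none was Sst-high; 4 of them lay in a cluster led by Crp, Tac1 and Tacr3. Of the 11 in the brush library 4 were glutamatergic, 3 inhibitory and 4 mixed. The cluster led by Slc30a3 and Rskr held 8 of the 11. In that cluster Otof was at 47.1 CPM in the bath and 37.0 CPM in the brush library, against 11.2 and 9.30 CPM outside it, so both libraries had more Otof inside it. Of the 11 nuclei, 3 were Sst-high, with Otof at 11, 6 and 6 and Sst at 50, 15 and 8 UMIs. In Sst-high nuclei as a whole Otof was at 3.33 CPM (2 UMIs in 1 nucleus) against 13.0 CPM in the others in the bath library, a log2 ratio of -1.65 (-5.03 to -0.10). Among inhibitory nuclei alone the ratio had the opposite sign, 1.22 (-2.36 to 3.65). In the brush library 10 of 37 Sst-high nuclei held 38 Otof UMIs, 25.4 CPM against 18.5 CPM, a ratio of 0.47 (-0.09 to 0.97), and of 0.00 (-0.66 to 0.57) without the Sst-high nucleus with the most Otof.

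Of the other ferlins only Dysf, the muscle membrane-repair gene, had at least 100 UMIs in both libraries. Its ratio in Sst-high over other nuclei was 0.64 (0.19 to 1.04) in the bath library and -0.01 (-0.46 to 0.40) in the brush library. Without the nucleus with the most Dysf these were 0.41 (-0.11 to 0.85) and -0.33. Among calcium sensors of release, Syt1 was level in both, at -0.02 and -0.06, and Syt2, a fast sensor, was lower at -1.18 (-1.79 to -0.68) and -0.42 (-0.62 to -0.23). In the first, 17 of 29 Syt2 UMIs of the Sst-high nuclei came from 1 nucleus, and the ratio without it was -2.30. That omission tends to lower a ratio, so it is no check of a negative one. These ratios of the bath library mix transmitter classes, as 13 of 16 Sst-high nuclei were inhibitory against 17.5% of the others. Among its inhibitory nuclei 4 of 6 listed sensors had at least 100 UMIs. None was at least 2-fold higher or lower, where 0.776% and 2.13% of 5029 genes were. The same held for 4 sensors each in inhibitory and glutamatergic nuclei of the brush library. There the backgrounds were 1.08% and 1.8%, and 0.899% and 2.03%. The genes whose level across nuclei was most like that of Otof were Lmo3, at a Pearson r of 0.25 over 422 and 0.31 over 269 nuclei, Prkch, Gfra2, Prkg1 and Kcnj6. For Sst they were Iqgap2 (0.22 and 0.20), Negr1, Cacna1g, Ppp3ca and Resp18. These are weak correlations in sparse counts, taken over nuclei that share a library, and Sst with Otof gave -0.11 and 0.08.

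The receptors were thinly counted. Sstr2 had 93 UMIs in 73 nuclei in the bath library, 5.76 CPM (4.65 to 7.05), and 79 in 58 nuclei of the brush library, 7.37 CPM (5.83 to 9.18), a log2 ratio of 0.36 (-0.09 to 0.80). Its intervals overlapped between glutamatergic (6.33 and 8.11 CPM) and inhibitory nuclei (4.37 and 6.16 CPM) in each library. No nucleus held more than 4 Sstr2 UMIs.

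Sstr1 had 14 UMIs, 0.866 CPM (0.474 to 1.45), and 32 UMIs, 2.98 CPM (2.04 to 4.21), a log2 ratio of 1.76 (0.84 to 2.80). In inhibitory nuclei it had 0 UMIs among 84 in the bath library, which allows up to 0.937 CPM, and 13 UMIs in 11 of 105 nuclei of the brush library, 3.48 CPM (1.85 to 5.96). Sstr3, whose protein is known from neuronal primary cilia, had 21 UMIs, 1.30 CPM (0.804 to 1.99), and 28 UMIs, 2.61 CPM (1.74 to 3.77), a ratio of 1.00 (0.14 to 1.90). In nuclei with Xist and no Y-linked UMI that ratio was -0.07. Sstr4 had 3 UMIs in 3 nuclei in the bath library and 0 in the brush library, which allows up to 0.280 CPM. Sstr5 was not analysed here, and Cort had 7 and 4 UMIs, none in a Sst-high nucleus. The 17 liver-gene nuclei held 1 Sstr2 UMI, or 2.03 CPM (0.051 to 11.3), and 0 of the other receptors, which allows each up to 6.08 CPM. The levels of Sstr1, Sstr2 and Sstr3 in neuronal nuclei of the brush library lie within these limits and cannot be told from those of the liver-gene nuclei at this depth.

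**Figure D5:**
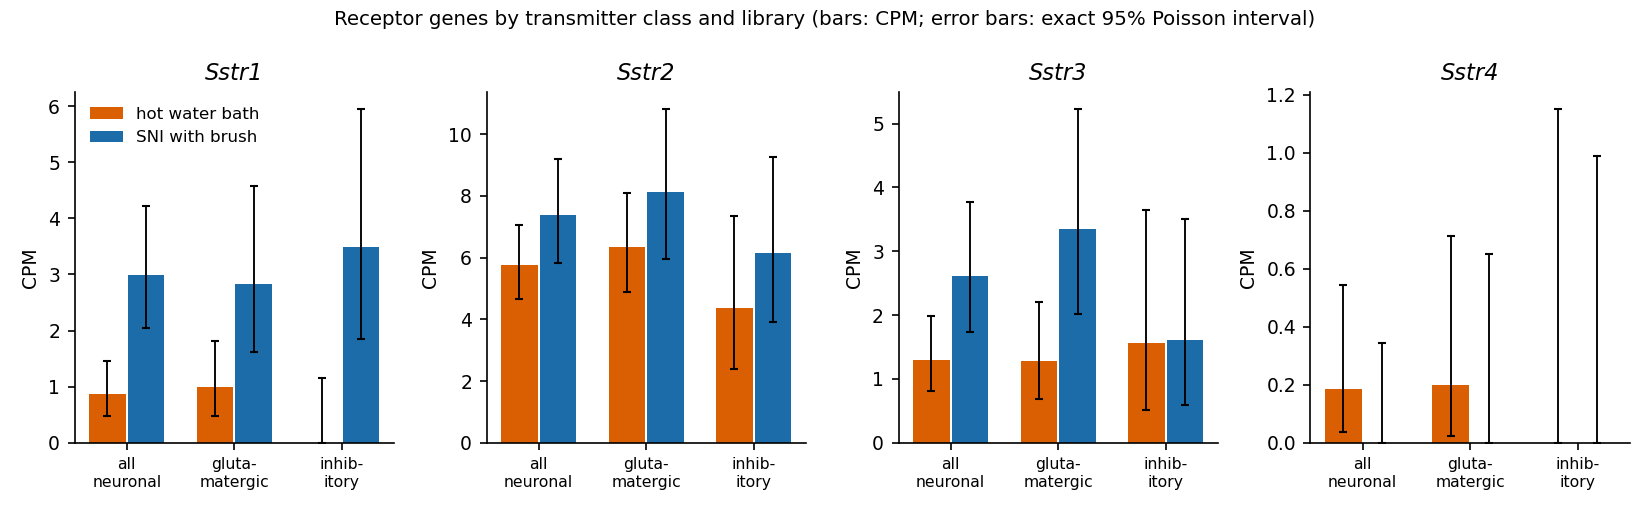
Summed receptor gene level in CPM for all neuronal, glutamatergic and inhibitory nuclei in the hot water bath (orange) and SNI with brush (blue) libraries, with exact 95% Poisson intervals and a separate vertical scale for each gene. Sstr1 is at 0 in bath inhibitory nuclei and at 3.48 CPM in those of the brush library, and Sstr4 rests on 3 UMIs.

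Between Sst-high and other nuclei, Sstr2 was at 4.99 CPM (3 UMIs in 16 nuclei) against 5.78 CPM in the bath library, a log2 ratio of 0.00 (-2.52 to 1.38). In the brush library it was at 7.36 CPM (11 UMIs in 9 of 37 nuclei) against 7.37 CPM, a ratio of 0.05 (-1.07 to 0.93). Sstr1 had 0 UMIs in the 16 Sst-high nuclei of the bath library, which allows 4.99 CPM, and 4 UMIs in the brush library, 2.68 against 3.03 CPM. Sstr3 had 1 UMI, and 7 UMIs in 7 nuclei, 4.68 (1.88 to 9.65) against 2.28 CPM, a ratio of 1.11 (-0.44 to 2.33). That ratio was 1.43 (0.12 to 2.59) with Sst-high set at 3 or more Sst UMIs, and 1.70 (0.02 to 3.27) against nuclei with 0 Sst UMIs, so the interval excluded 0 under these settings. It included 0 with 10 or more Sst UMIs (1.05, -0.80 to 2.37) and without the top nucleus (0.94, -0.74 to 2.21). The same was so among inhibitory nuclei, with doublets kept and without nuclei with 5 or more Tph2 UMIs. After thinning to 10000 UMIs, Sstr3 was seen in 1 of 37 Sst-high and 7 of 230 other nuclei. Of the 7 Sst-high nuclei with a Sstr3 UMI before thinning, 5 were glutamatergic. A UMI of any of the 4 receptors was seen in 4 of 16 and 14 of 37 Sst-high nuclei, and in 102 of 422 (24.2%) and 91 of 269 (33.8%) neuronal nuclei. UMIs of 2 or more receptors were in 8 and 21 nuclei.

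Of 19 listed genes that carry the receptor signal, 17 and 18 had at least 100 UMIs. In the bath library 1 was at least 2-fold lower in Sst-high nuclei (6.24% of all genes were), the potassium channel gene Kcnj3 at -1.18 (-1.50 to -0.89), and none was higher by as much. None of the 18 in the brush library passed 2-fold in either direction. The list's medians were -0.01 and 0.13. The inhibitory G protein gene Gnai1 was at 0.74 (0.37 to 1.08) and 0.35 (0.05 to 0.62), or 0.46 (0.03 to 0.84) and 0.02 (-0.32 to 0.33) without the nucleus with the most Gnai1, and Gnao1 at 0.28 and 0.01. Of the other subunits of this channel family, Kcnj6 was at -0.50 (-1.01 to -0.06) and 0.51 (0.25 to 0.75), and Kcnj9 at 0.94 (0.45 to 1.39) in the brush library. Without the top nucleus of each gene, Kcnj3 was at -1.53 in the bath library, Kcnj6 at -0.73 and 0.42, and Kcnj9 at 0.63 (0.08 to 1.13). The omission took nuclei from the Sst-high side only, so it does not check the negative ratios. The bath ratios mix transmitter classes, as 13 of 16 Sst-high nuclei were inhibitory against 17.5% of the others. Among inhibitory nuclei of that library 14 of these genes had at least 100 UMIs (median 0.01). None was at least 2-fold higher or lower, where 0.776% and 2.13% of 5029 genes were. Nor was any of 13 among brush inhibitory nuclei, where 1.08% and 1.8% were. Of 17 among brush glutamatergic nuclei 1 was higher, where 0.899% were, and none lower, where 2.03% were.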

How the data were processed

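Nuclear RNA of sorted hindbrain nuclei was counted with the 10x 3' v3 kit in 2 libraries, 1 per treatment. The deposited tables give whole-number UMI counts per gene and nucleus; the submitters' processing notes name Cell Ranger 5.0, mm10 and, with no version, Seurat. The authors' rule for keeping 425 of 723 and 288 of 850 listed barcodes is not given. A floor of 500 genes and a ceiling of 5% mitochondrial UMIs removed no nucleus. Scrublet, as in scanpy 1.11.5, called 3 and 2 doublets, which were removed. Leiden clustering at resolution 1 used 2000 variable genes without the members, 30 components and 15 neighbours. Counts were summed over nuclei and scaled to CPM, with exact Poisson intervals; shares have Clopper-Pearson intervals. Ratios add 0.5 UMI to both sums, with intervals conditional on the total. A count of 0 was given a limit of 3 counts. All cover counting error only.

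The members and lists were chosen with earlier results of these data known. Named genes needed 20 UMIs, a UMI in 50% of Sst-high nuclei and at most 25% of UMIs from 1 nucleus in each library; the lowest needed 100 UMIs in the other nuclei. The 12 highest and lowest were named, with predicted, mitochondrial, ribosomal and sex-linked marker genes left out; genes given from lists or for 1 class were chosen after their values were seen. On simulated data for the SNI with brush comparison of 10602 genes, genes raised 4-fold gave a median log2 ratio of 1.99, and 96.0% of intervals of unchanged genes held the true value. For the hot water bath comparison 90% of intervals of 50 genes raised 2-fold did. The simulated sums had Poisson error alone and no spread between nuclei. They check the calculation and do not show how often the intervals hold in these data. Gene places are from GENCODE vM21, and receptor coding sequences were aligned with biopython 1.88. Alternatives were other Sst thresholds, thinning, doublets kept, size factors, means over nuclei and single nuclei left out. In ratios of Sst-high over other nuclei the top nucleus was left out of the Sst-high side only. Subsets of nuclei by class, mitochondrial share, Tph2 and sex-linked UMIs, other settings for the inhibitory share, and ratios within a class without the top nucleus were chosen after seeing the data.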

Additional observations from a re-analysis of the deposited data

Results flagged for a closer look

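Of 77 listed genes with at least 100 UMIs in each library and a UMI on every side, 12 had opposite signs. For these the difference between Sst-high and other nuclei ran one way in the bath library and the other way in the brush library, each with a counting interval on one side of 0. Whether the libraries differ was not tested, and the share of opposite signs over all genes is not given here. The Sst-high nuclei differed in make-up between libraries. In the bath library 81.3% of them were inhibitory against 17.5% of the others, in the brush library 40.5% against 38.8%. Nuclei with 5 or more Tph2 UMIs were 7 of 16 and 0 of 37. The part of this make-up in the signs was not tested. The inhibitory enzymes Gad1 and Gad2 had log2 ratios of 2.56 and 2.30 in the bath library and of -0.47 and -0.43 in the brush library. The serotonergic genes Tph2, Slc18a2 and Ddc were at 2.80, 2.67 and 2.45 in the bath library and at -4.32, -1.31 and -2.97 in the other library. The peptides Cck and Adcyap1 were at -3.07 and -3.80, resting on 1 UMI each in the Sst-high nuclei of the bath library, and at 0.50 and 1.15 in the brush library. The factor Nfib was at -1.96 and 0.57. The potassium channel genes Kcnj3 and Kcnj6 were at -1.18 and -0.50 in the bath library and at 0.14 and 0.51 in the brush library. Rgs7, a regulator of G protein signalling, was at -0.74 and 0.16, and Cpe, carboxypeptidase E, at -0.28 and 0.43. Without the nucleus with the most UMIs, Cck was at -0.29 and Nfib at -0.48 in the brush library, so for these 2 genes the opposite sign rests on 1 nucleus each. The same omission put Kcnj3 at 0.09 (-0.04 to 0.22) and Rgs7 at 0.08 (-0.03 to 0.20) there, with intervals that include 0. Maob, with 3 UMIs in Sst-high and 76 in other nuclei of the brush library and so under the floor, was at 2.31 and -1.82.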

How the results depend on the processing

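Of 126 values recomputed under an alternative, 106 stayed within the main interval. In all, 12 had another sign than the main value, 10 of them with a main interval that includes 0 (Sstr1 and Sstr2) and 2 with one that does not (Sstr3 with Xist only and Otof among inhibitory nuclei); the cause was not tested. No paired analysis was possible because each treatment has 1 library. For Sst between libraries the log2 ratio was 2.09 with size factors, which shift every ratio by -0.24, 2.68 as a mean over nuclei, 4.03 in glutamatergic and 0.77 in inhibitory nuclei, 3.69 in nuclei with Y-linked UMIs and 1.86 in nuclei with Xist only. Otof gave 0.21 at low mitochondrial content, 2.50 in inhibitory nuclei and 1.09 in nuclei with Y-linked UMIs, where Sstr2 gave 0.81 and Sstr3 2.47. Sstr3 was at 0.019 in inhibitory nuclei and at -0.073 in nuclei with Xist only. Sstr1 gave no ratio for inhibitory nuclei, with 0 UMIs on one side. The Sst-high share in the bath library was 7.35% at 3 or more UMIs, 1.42% at 10 or more and 1.42% after thinning, and 7.87% after thinning in the brush library. Otof in Sst-high against other nuclei of the bath library was at -0.090 with 10 or more Sst UMIs and at 1.22 among inhibitory nuclei. Sstr2 among inhibitory nuclei of the brush library was at 1.14. The inhibitory share of Sst-high nuclei stayed within its interval throughout. The receptors had 0 to 93 UMIs per gene and library, which limits the precision of their ratios.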
